A study of Mus musculus with 6 samples.

Results

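Oxidative phosphorylation is the work of the mitochondrial inner membrane. Complexes I to IV pass electrons from NADH and succinate to oxygen and pump protons, and complex V, the ATP synthase, lets the protons back to make ATP. Most subunits are encoded in the nucleus and imported, while a small set at the core of complexes I, III, IV and V is encoded by the mitochondrial DNA and transcribed there as long precursors from either strand. Complex II, succinate dehydrogenase, is entirely nuclear. Heart muscle is rich in these complexes and carries muscle forms of several complex IV subunits, whereas fibroblasts use the widely expressed forms.

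The genes described here were taken by name and position, not by their values, though with earlier results of these data known. They are the protein-coding rows of the deposited table that lie on the mitochondrial chromosome, or whose symbol starts with Ndufa, Ndufb, Ndufc, Ndufs, Ndufv, Uqcr, Cox4i, Cox5, Cox6, Cox7, Cox8 or Atp5, or is Sdha, Sdhb, Sdhc or Sdhd. The rule took 108 of 33682 rows, and 22250 of those rows are protein-coding. Of the 108 genes, 95 are nuclear and 13 mitochondrial. The nuclear set holds 36 genes of complex I, 4 of complex II, 9 of complex III, 22 of complex IV with Ndufa4 and Ndufa4l2 counted there, 16 of complex V, and 8 complex I assembly factors named Ndufaf, which are not subunits. The mitochondrial set holds 7 genes of complex I, 1 of complex III, 3 of complex IV and 2 of complex V. Genes were tested where their mean level reached 1 FPKM, which 101 of the 108 did: all 13 mitochondrial genes and 88 of the 95 nuclear genes.

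RNA was sequenced from 6 samples of neonatal rat heart cells, all labelled wild type, that had received medium conditioned by bone marrow-derived mast cells. For 3 samples the mast cells were wild type (WT medium), and in 3 they were ALOX5-/- (Alox5KO medium). TNF-a had been given to the mast cells of both groups, so the groups differ in the mast cell genotype alone, as far as the labels say. Neither leukotrienes nor carried-over TNF-a were measured here, and no sample with unstimulated or without mast cell medium was analysed here. The labels do not say that replicates were separate cultures, and the p-values then measure only the spread between samples, whose source may be technical. Values are FPKM, fragments per kilobase of gene, scaled to the fragments of each library. The reads recovered from them summed to between 13284088 and 15766187 per library.

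The study is labelled Mus musculus, while 32883 of the 33682 rows carry rat Ensembl identifiers and 0 carry mouse ones. The label calls the cells cardiomyocytes and the design text names cardiac fibroblasts. Fibroblast transcripts were abundant in every library, led by Col1a1, a chain of type I collagen, at 2940 to 4052 FPKM. Of 17 cardiomyocyte markers in the table, the cardiac troponin T gene Tnnt2 was the most abundant at 16.1 to 91.6 FPKM, and the ventricular light chain gene Myl2 was listed at 0 throughout. The summed cardiomyocyte markers ran from 43.0 to 70.5 FPKM with WT medium and from 118 to 144 FPKM with Alox5KO medium. Of the 10 tested genes 5 were called higher and 1 lower, beside 10.0% and 10.6% of all 12341 tested genes. The summed level of endothelial markers was at most 6.48 FPKM, that of leukocyte markers 23.5 to 38.3, and that of mast cell markers 38.1 to 53.6 after WT and 17.04 to 25.1 after Alox5KO medium. In each of these 3 lists 1 gene was called lower, out of 1, 3 and 1 tested genes, beside 10.6% of all tested genes. The 1 tested endothelial and the 1 tested mast cell gene had means of 4.16 and 32.5 FPKM over all libraries. Each made up most of the summed level of its list. Of 12 fibroblast markers 3 were called higher and 4 lower, beside 10.0% and 10.6% of all tested genes. In bulk RNA, fewer cells of a type and less RNA per cell cannot be told apart.

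Libraries of the same group differed in these genes before any comparison of the media. WT-medium replicate 3 was the lowest of the WT-medium libraries for 85 of the 87 tested nuclear genes other than Ndufa1, against 39.5% of all tested genes. Alox5KO-medium replicate 1 was the highest of its group for 62 of the 87, against 32.1% of all tested genes. The summed nuclear level was 11110, 11577 and 9400 FPKM in WT-medium replicates 1 to 3, and 11119, 9422 and 9858 FPKM in Alox5KO-medium replicates 1 to 3. In this sum WT-medium replicate 3 lay close to Alox5KO-medium replicate 2. The libraries of 1 group thus differed from each other by more than the group means did, which were 10696 ± 1146 and 10133 ± 881 FPKM (SD, n = 3 per group).

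The deviation from the mean was larger in short than in long nuclear genes in 5 of the 6 libraries, all but WT-medium replicate 1. With gene lengths divided at 600 and 1200 bases, a choice made after the values were seen, the 35 nuclear genes under 600 bases had median deviations from their own mean of 0.09, 0.24 and -0.20 on the log2 scale in WT-medium replicates 1 to 3. Their medians were 0.22, -0.15 and -0.15 in Alox5KO-medium replicates 1 to 3. The 21 nuclear genes of at least 1200 bases had medians of 0.11, 0.12, -0.06, -0.04, -0.08 and 0.01 in the same order. The 490 tested protein-coding genes under 600 bases, which include these 35, deviated in the same direction in each library, by 0.13, 0.16, -0.11, 0.08, -0.13 and -0.15. Of the 108 genes, 43 are under 600 bases, and the median length of the 108 is 728.5 bases, against 2192 for all tested genes. The part of gene length in the results below was not tested.

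**Figure D1:**
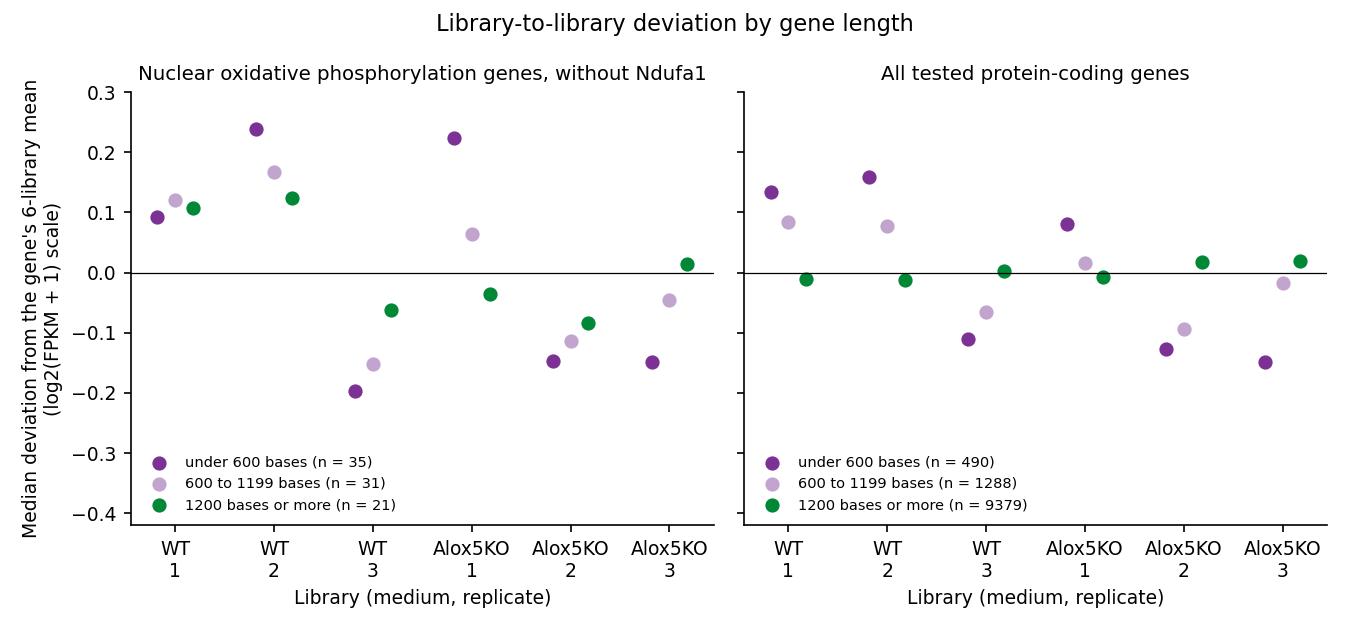
Each point is the median, over the genes of a length class, of the deviation from the gene's mean over the 6 libraries on the log2(FPKM + 1) scale (y axis), for each library (x axis), in nuclear oxidative phosphorylation genes (left) and all tested protein-coding genes (right). Short genes sat at 0.24 in WT-medium replicate 2 and at -0.20 in WT-medium replicate 3, and long genes lay nearer 0 in all libraries but WT-medium replicate 1 of the left panel.

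The contrast asks which of these transcripts differed with the Alox5 genotype of the mast cells behind the medium. Of 101 tested genes, 2 were lower with Alox5KO medium, Ndufa4l2 and Cox7a2l, and 0 were higher (limma, Benjamini-Hochberg adjusted p under 0.05 over all 12341 tested genes). Among all tested genes 20.7% passed in either direction, 10.6% lower and 10.0% higher. At an unadjusted p under 0.05 there were 9 of the 101 genes, against 3998 of all 12341. By limma on recovered reads (voom) 2 of the 101 were lower and 0 higher, beside 21.9% of all tested genes called.

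Among all tested genes at 50 FPKM or more, 24.6% were called, while 1 of the 78 oxidative phosphorylation genes at that level was. The median log2 fold change of the 88 nuclear genes was -0.08 and that of the 13 mitochondrial genes was -0.09, beside -0.00082 for all tested genes. At 50 FPKM or more the median was -0.06 for all 1768 tested genes and -0.08 for the 78, so abundant genes in general leaned below 0. Single libraries decided the size of the nuclear and mitochondrial medians. The nuclear median was -0.0053 without WT-medium replicate 2, -0.18 without WT-medium replicate 3, -0.14 without Alox5KO-medium replicate 1 and -0.03 without Alox5KO-medium replicate 2. The mitochondrial median was -0.15 without WT-medium replicate 1, -0.26 without Alox5KO-medium replicate 1 and -0.01 without Alox5KO-medium replicate 3. The median size of the change, without its sign, was 0.10 for the nuclear and 0.09 for the mitochondrial genes, and 0.20 for all tested genes. Among all tested genes at 50 FPKM or more it was 0.18. For 83 of the 101 genes the 95% interval of the log2 fold change lay wholly within 1.5-fold in either direction. It did so for 57.0% of all tested genes, and for 65.8% of those at 50 FPKM or more. The remaining 18 of the 101 include Ndufa4l2, whose interval lay wholly beyond 1.5-fold. The others include genes with few reads and Ndufa1, but also abundant genes such as ND4L and Uqcrq. In these others a change of 1.5-fold was not bounded here.

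The FPKM ranges of the groups failed to overlap in 8 of the 101 genes, against 37.6% of all tested genes. Among them Ndufa4l2, Cox7a2l, Cox4i2, Sdhd and Ndufs1 lay wholly lower with Alox5KO medium, and the assembly factors Ndufaf1 and Ndufaf7 wholly higher. Without WT-medium replicate 3, 7 of the 101 genes were called lower and 0 higher, beside 20.6% of all tested genes. That library was the lowest of its group for nearly all tested nuclear genes. Leaving it out therefore raises the WT-medium means by construction, and these calls are no separate support for a fall. The 7 included Ndufa4l2, Cox4i2, Ndufa5, Ndufa11, Ndufaf6 and the mitochondrial ND3, and Cox7a2l was not among them (limma, adjusted p = 0.057).

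**Figure D2:**
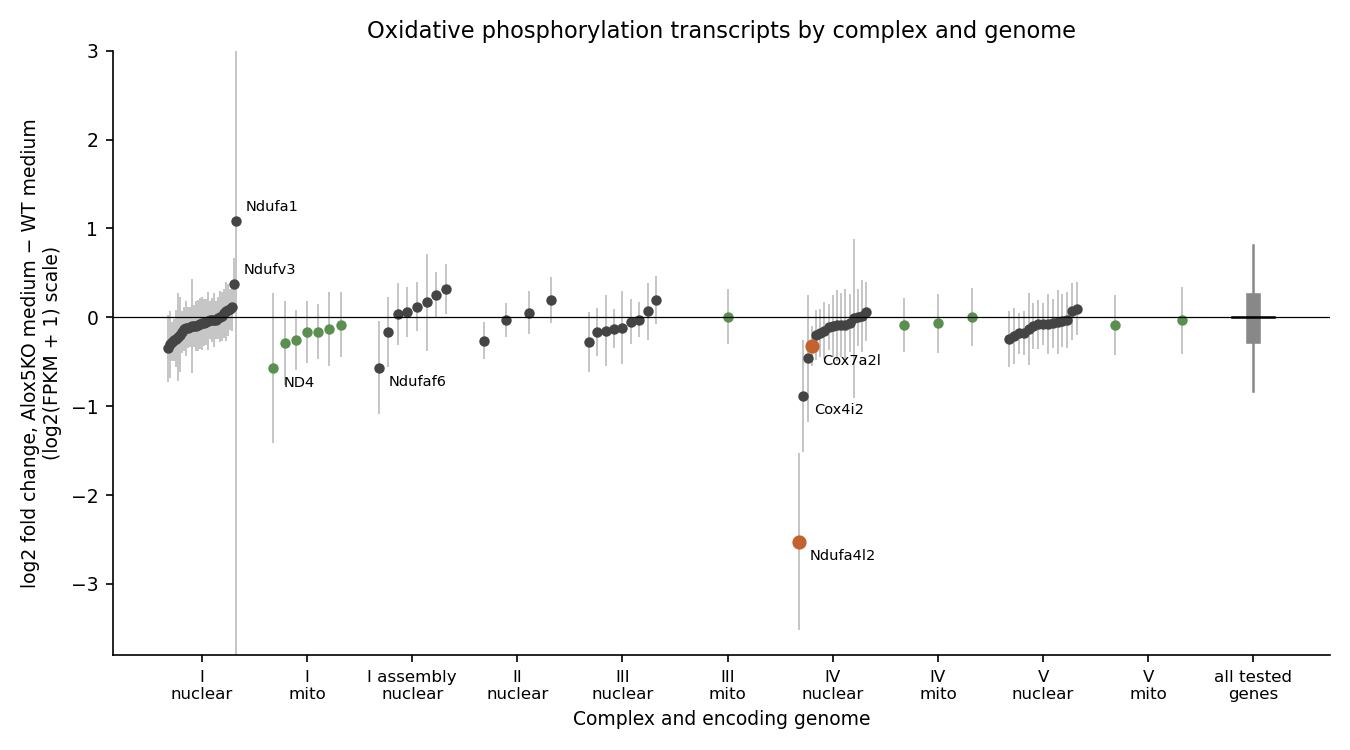
Each point is a gene's log2 fold change, Alox5KO minus WT medium (y axis), with its 95% interval as a bar, by complex and genome (x axis). Dark grey points are nuclear, green points mitochondrial and orange points the called genes Ndufa4l2 and Cox7a2l. The grey bar at the right gives the middle 50% of all tested genes, its thin line the middle 90%, and the black line their median. The interval of Ndufa1 (-5.50 to 7.66) runs past the axis.

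Complex I, NADH dehydrogenase, is the main entry point for electrons. Of its 35 tested nuclear genes 0 were called and 3 had an unadjusted p under 0.05 (limma). Their log2 fold changes, 26 negative and 9 positive, had a median of -0.07. Their mean levels ran from 9.85 FPKM for Ndufa12 to 149 FPKM for Ndufb8. Ndufb8, an accessory subunit of the membrane arm, had 164, 155 and 145 FPKM after WT medium and 154, 130 and 150 after Alox5KO medium. Ndufa12 had 11.9, 12.4 and 7.77 FPKM after WT medium and 11.8, 7.33 and 7.92 after Alox5KO medium. In both genes the groups overlapped.

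Ndufs1 and Ndufv3, parts of the arm that reaches into the matrix, were among the complex I genes nearest the threshold. Ndufs1, the large iron-sulphur subunit, had 51.2, 52.3 and 44.0 FPKM after WT medium against 43.3, 42.1 and 37.9 after Alox5KO medium, groups that lay apart, with a log2 fold change of -0.25 (limma, adjusted p = 0.13). Ndufv3, a small accessory subunit next to the NADH site, went the other way at 29.6, 31.0 and 35.1 against 45.4, 34.2 and 45.9 FPKM. It had a log2 fold change of 0.37, standard error 0.13 (limma, adjusted p = 0.080), and the groups overlapped through Alox5KO-medium replicate 2. Without that replicate, and in none of the other 16 alternatives, it was called higher, at 0.51 (limma, adjusted p = 0.015).

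Ndufa1, a small membrane-arm subunit on the X chromosome, could not be compared. It had 14.0, 0.714 and 92.9 FPKM after WT medium and 1.24, 98.5 and 101 after Alox5KO medium, from 42, 2, 286, 4, 340 and 327 reads. Each group held both near-absent and abundant values. The log2 fold change of 1.08 had a 95% interval from -5.50 to 7.66 and ran from -0.41 to 2.91 with 1 library left out. The libraries with few Ndufa1 reads were the same 3 in which short nuclear genes sat above their means. Its row spans 124513269 to 124516705 on chromosome X, on the minus strand, with 213 bases of gene length.

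Complex I assembly factors, which build the complex and leave it, gave 0 calls among 8 tested genes, with 2 at an unadjusted p under 0.05 (limma). Their medians were 11.0 FPKM in level and 0.09 in log2 fold change, with 6 values above 0. Ndufaf8 was the most abundant, at 25.4, 33.7 and 21.4 against 26.2, 29.3 and 26.1 FPKM, and Ndufaf2 the least, at 6.48, 8.86 and 4.10 against 7.93, 7.66 and 5.90 FPKM. Ndufaf1, a chaperone of early assembly, had 9.28, 10.3 and 8.31 after WT medium and 13.6, 11.1 and 10.9 FPKM after Alox5KO medium. The Ndufaf1 groups did not overlap, with a log2 fold change of 0.32 (limma, adjusted p = 0.11). Ndufaf6 had 15.2, 15.9 and 10.0 against 7.42, 12.0 and 7.50 FPKM, groups that overlapped, with a log2 fold change of -0.57 and a standard error of 0.23 (limma, adjusted p = 0.13). In 3 of 17 alternatives it was called lower, among them without WT-medium replicate 3 and without Alox5KO-medium replicate 2, at -0.76 and -0.77 (limma, adjusted p = 0.033 and 0.028).

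The 4 genes of complex II, which feeds electrons from the citric acid cycle, lay close together in level at means of 62.8 to 95.6 FPKM. Sdha, the flavoprotein that oxidises succinate, had 65.6, 63.8 and 61.2 FPKM after WT medium and 62.7, 62.2 and 61.4 after Alox5KO medium. Its log2 fold change was -0.03, with a 95% interval from -0.22 to 0.16. Sdhb, the iron-sulphur subunit, had 82.5, 82.5 and 70.3 against 83.1, 74.6 and 86.3 FPKM. The membrane anchors Sdhc and Sdhd had log2 fold changes of opposite sign. Sdhc had 88.5, 96.8 and 82.2 against 102, 90.2 and 114 FPKM, overlapping groups with a log2 fold change of 0.19 (limma, adjusted p = 0.30). Sdhd had 78.4, 75.0 and 69.2 against 61.5, 59.1 and 64.4 FPKM, groups that lay apart, with a log2 fold change of -0.26, a standard error of 0.09 (limma, adjusted p = 0.080), and none of 17 alternatives called it. With 1 gene at an unadjusted p under 0.05, 0 of the 4 were called.

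Complex III passes electrons from ubiquinol to cytochrome c. Of 9 tested nuclear rows 0 were called and 0 had an unadjusted p under 0.05 (limma), with a median of -0.12 and a range from -0.27 for Uqcrq to 0.19 for the Uqcrb row on chromosome 1. Uqcrfs1, the Rieske iron-sulphur protein and the most abundant of them, had 178, 172 and 164 FPKM after WT medium and 153, 147 and 169 after Alox5KO medium. Uqcrb was listed on chromosomes 1 and 7, and reads shared by near-identical copies may have been split between these rows. The chromosome 7 row, the least abundant of the complex, had 18.1, 17.1 and 15.7 against 17.8, 14.3 and 17.1 FPKM.

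**Figure D3:**
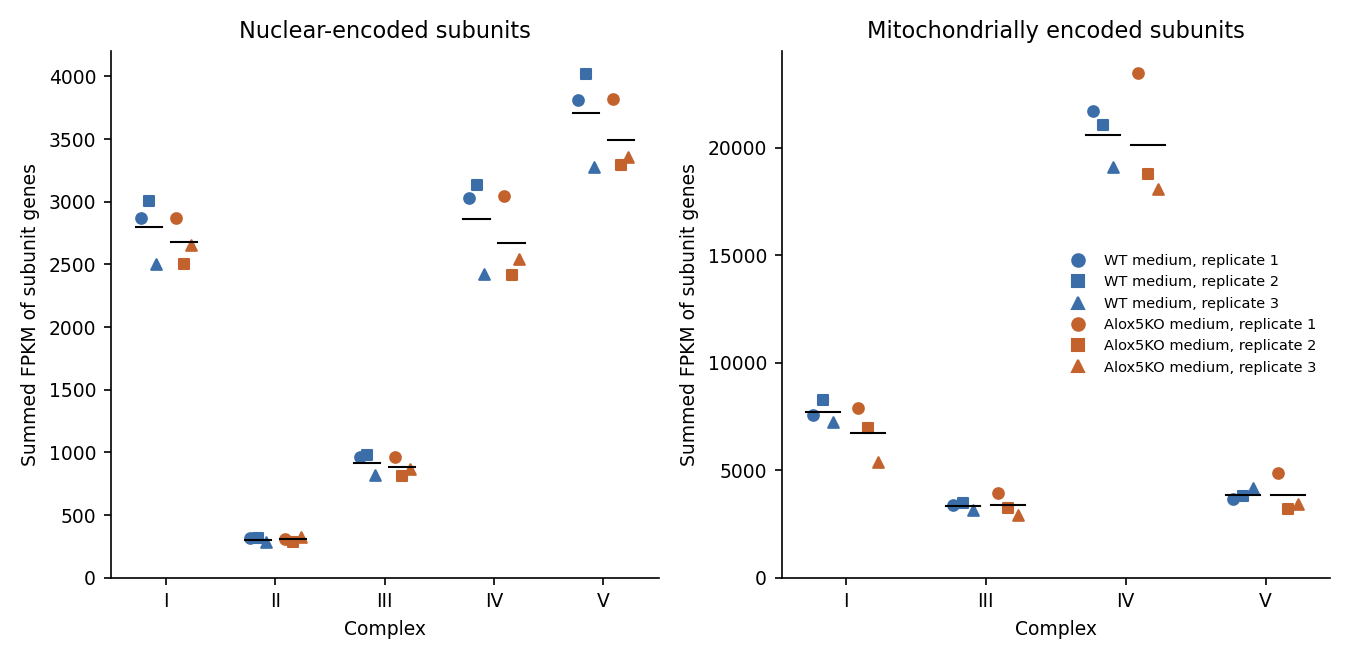
Points are the summed FPKM of the genes counted under a complex (y axis, from 0) in each library, by complex (x axis), for nuclear genes (left) and mitochondrial genes (right, on its own scale). The sums leave out the Ndufaf assembly factors but hold Ndufa4l2, Cox7a2l and Atp5if1. Black lines are group means of 3 libraries. The groups overlapped for every complex and genome.

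The genes counted under complex IV, cytochrome c oxidase, held both calls. Of the called genes, Ndufa4l2 was placed there with its paralogue Ndufa4, and Cox7a2l by its name alone. The 17 tested nuclear genes of the class had a median log2 fold change of -0.09, with 15 values below 0 and 2 above. Cox4i1, the common form of the largest nuclear subunit and the most abundant nuclear gene of the complex, had 432, 432 and 363 FPKM after WT medium and 392, 324 and 367 after Alox5KO medium. Cox6b2, a form known from testis, was the least abundant tested gene, at 2.57, 3.23 and 2.94 against 3.51, 0.788 and 1.83 FPKM. In these 2 genes the groups overlapped.

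Ndufa4l2 showed the largest change in the set. It is the paralogue of Ndufa4 and is known as a hypoxia-inducible gene. Ndufa4l2 had 19.97, 17.5 and 8.29 FPKM after WT medium and 0.839, 2.94 and 1.61 after Alox5KO medium. Every Alox5KO-medium library lay below every WT-medium library, and WT-medium replicate 3 was the lowest of its group. The group means were 15.3 ± 6.15 and 1.798 ± 1.07 FPKM (SD, n = 3 per group), a ratio of 0.118, from 595 and 80 reads. It fell by 2.52 on the log2 scale, standard error 0.41 (limma, adjusted p = 0.0080). All 17 alternatives tried kept the call, at between -3.09 with limma voom and -2.26 without Alox5KO-medium replicate 1. The row (ENSRNOG00000031851) spans 70821957 to 70824085 on the plus strand of chromosome 7, in the coordinates of the table, with no rat build named there or in the labels.

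Its paralogue Ndufa4, now counted as a subunit of complex IV, was more abundant and was not called. It had 142, 162 and 120 FPKM after WT medium and 161, 117 and 120 after Alox5KO medium, overlapping groups with a log2 fold change of -0.09 (95% interval -0.44 to 0.25). Ndufa4l2 made up 12.4%, 9.76% and 6.44% of the summed FPKM of the pair with WT medium and 0.517%, 2.46% and 1.32% with Alox5KO medium. Ndufa4l2 is also used as a marker of pericytes. In the smooth muscle and pericyte list, 8 of 9 tested markers were called higher with Alox5KO medium and 0 lower, beside 10.0% of all tested genes called higher. The remaining marker had a log2 fold change of -0.65 and was not called. The summed level ran from 1086 to 1191 FPKM with WT medium and from 5002 to 6856 FPKM with Alox5KO medium. The pericyte gene Rgs5 had 3 and 2 reads in the groups. Neither the presence of smooth muscle cells or pericytes nor their part in the Ndufa4l2 result was tested.

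Cox4i2, another isoform associated with low oxygen and with pericytes, was also lower on average with Alox5KO medium but was not called. Cox4i2 had 19.9, 18.0 and 9.77 FPKM after WT medium and 7.12, 9.77 and 6.82 after Alox5KO medium. The groups were separated only by the third digit, between WT-medium replicate 3 at 9.772 and Alox5KO-medium replicate 2 at 9.767 FPKM. At a log2 fold change of -0.88, standard error 0.27, it missed the threshold (limma, adjusted p = 0.060). Without WT-medium replicate 3, 1 of the 2 alternatives out of 17 that called it, it was at -1.18 (limma, adjusted p = 0.0015). Cox4i2 made up 4.41%, 4.00% and 2.62% of the FPKM of Cox4i1 plus Cox4i2 with WT medium, and 1.78%, 2.92% and 1.82% with Alox5KO medium.

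Cox7a2l, which encodes a factor that joins complexes III and IV into supercomplexes, fell by a small amount. It had 212, 205 and 203 FPKM after WT medium and 180, 151 and 164 after Alox5KO medium. The groups did not overlap, and WT-medium replicate 3 was close to its group here. It fell by 0.33 on the log2 scale, standard error 0.10, to 0.799 times the WT-medium mean (limma, adjusted p = 0.048). The call lay at the threshold, since 5 of 17 alternatives kept it. It was lost without WT-medium replicate 1, 2 or 3 and without Alox5KO-medium replicate 2 or 3, at adjusted p of 0.18, 0.13, 0.057, 0.14 and 0.12 (limma). The row spans 6695827 to 6709783 on the minus strand of chromosome 6. Its relative Cox7a2, the common subunit form, had 133, 149 and 108 against 154, 107 and 107 FPKM, overlapping groups with a log2 fold change of -0.09.

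The muscle forms of complex IV subunits were scarce in all 6 libraries. Cox7a1, the heart and skeletal muscle form beside Cox7a2, had 1 read in each group. Cox8b, the muscle form beside Cox8a, had 1 and 2 reads, while Cox8a lay between 190 and 254 FPKM. Cox6a2, the muscle form beside Cox6a1, reached 6.88, 6.08 and 2.04 FPKM after WT medium and 5.41, 4.42 and 3.75 after Alox5KO medium. Cox6a1 lay between 301 and 424 FPKM, so Cox6a2 made up 0.672% to 1.88% of the pair. The Cox6a2 groups overlapped, with a log2 fold change of -0.01 and a wide 95% interval from -0.91 to 0.89. For a row listed at 0, the limit set by 3 reads is 0.185 to 0.228 FPKM at 1 kilobase, for counting error only.

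**Figure D4:**
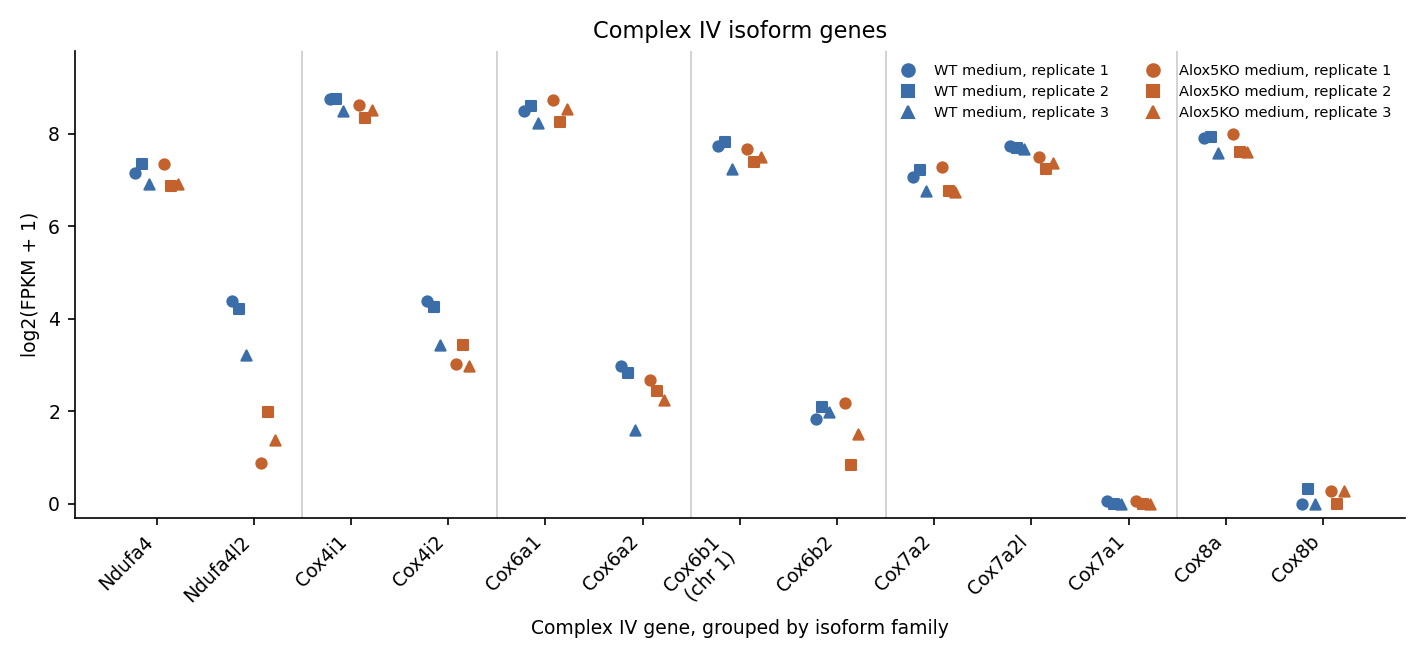
Points are log2(FPKM + 1) of complex IV isoform genes (y axis) in each library, with genes on the x axis grouped into families by grey lines. Ndufa4l2 lay lower in all 3 Alox5KO-medium libraries, and the muscle forms Cox7a1 and Cox8b sat at or near 0 in all 6.

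Other nuclear complex IV genes ranged from abundant to listed at 0. Cox5a and Cox5b, which sit on the matrix side, had log2 fold changes of -0.11 and -0.15, and Cox7b, Cox7c and Cox6c had -0.19, 0.02 and -0.0020, with 0 calls. Cox6b1 appeared on chromosome 1 at 151 to 225 FPKM and on chromosome 2 at 37.4 to 56.8 FPKM, and reads of such copies may be split between rows. Their log2 fold changes were -0.09 and -0.08. Cox8c, Cox7b2, Cox6c-ps1 and the complex I row Ndufa10l1 were listed at 0 in every library.

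Complex V had the most even pattern. Its 15 tested nuclear genes held 0 calls and 0 values at an unadjusted p under 0.05 (limma), all 15 had 95% intervals within 1.5-fold, and their log2 fold changes ran from -0.24 for Atp5mg to 0.10 for Atp5mf, with a median of -0.08. Atp5f1b, the catalytic beta subunit and the most abundant nuclear gene of the whole set, had 631, 637 and 575 FPKM after WT medium and 545, 584 and 618 after Alox5KO medium. Atp5f1d, the delta subunit of the central stalk, was the least abundant tested gene at 65.2, 64.5 and 54.5 against 54.3, 53.2 and 64.1 FPKM. Atp5if1, the protein that blocks the enzyme from running backwards, had 225, 222 and 199 against 280, 203 and 201 FPKM, with a log2 fold change of 0.07. In all 3 genes the groups overlapped. Atp5pb, a peripheral stalk subunit that the enzyme needs, was the exception in level. It had 11, 6, 16, 9, 16 and 10 reads, or 0.221 to 0.537 FPKM, and was not tested. The row overlaps 2 other rows on the opposite strand, and its low level was not read as absence.

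The mitochondrial transcripts were among the most abundant in the table, and 0 of 13 were called or had an unadjusted p under 0.05 (limma). COX1, the catalytic core of complex IV, ranked highest of all tested genes, and 9 of the 13 were within the top 100. Together they held 36267, 36612 and 33655 FPKM after WT medium and 40193, 32206 and 29841 after Alox5KO medium, or 3.51%, 3.51% and 3.23% against 3.97%, 3.27% and 2.92% of reads. Alox5KO-medium replicates 1 and 3 were the highest and lowest of all 6 libraries, so the spread within that group, an SD of 5424 FPKM, exceeded the difference of the means. The ratio of mitochondrial to nuclear summed FPKM was 3.26, 3.16 and 3.58 with WT medium and 3.61, 3.42 and 3.03 with Alox5KO medium. The groups overlapped, at means of 3.34 ± 0.218 and 3.35 ± 0.299 (SD, n = 3 per group).

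Levels differed widely between mitochondrial genes that share a strand. COX1 (position 5323 to 6867 of the mitochondrial chromosome) had 9151, 8788 and 7629 FPKM after WT medium and 9796, 8518 and 7422 after Alox5KO medium. The log2 fold change of COX1 was 0.0046. COX2 and COX3 lay between 5068 and 7072 FPKM, ATP6 between 2994 and 4584, ATP8 between 198 and 289, and CYTB, the core of complex III, between 2908 and 3966. The complex I genes ND1, ND2, ND3 and ND4L lay between 853 and 1858 FPKM and ND5 between 598 and 842. ND6, the 1 subunit encoded on the other strand, had 460 to 643 FPKM and a log2 fold change of -0.08.

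ND4 was the lowest mitochondrial gene. It had 201, 233 and 118 FPKM after WT medium and 118, 167 and 85.6 after Alox5KO medium, overlapping groups with a log2 fold change of -0.57, a standard error of 0.34 and a 95% interval from -1.42 to 0.28 (limma, adjusted p = 0.33). Of 17 alternatives 1 called ND4, the fit with a replicate block (limma, adjusted p = 0.0062). ND4L and ND4 are known to share a transcript, yet ND4 had 0.068 to 0.136 times the FPKM of ND4L. ATP8 and ATP6 are likewise read from the same transcript, and ATP8 had 0.063 to 0.070 times the FPKM of ATP6. In the table ND4L and ND4 share 7 bases, ATP8 and ATP6 share 43 of the 204 bases of ATP8, and ND5 and ND6, on opposite strands, share 23. How reads in such overlaps, or reads with copies in the nuclear genome, were counted is not stated in the sources. Levels of neighbouring mitochondrial genes are therefore uncertain.

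**Figure D5:**
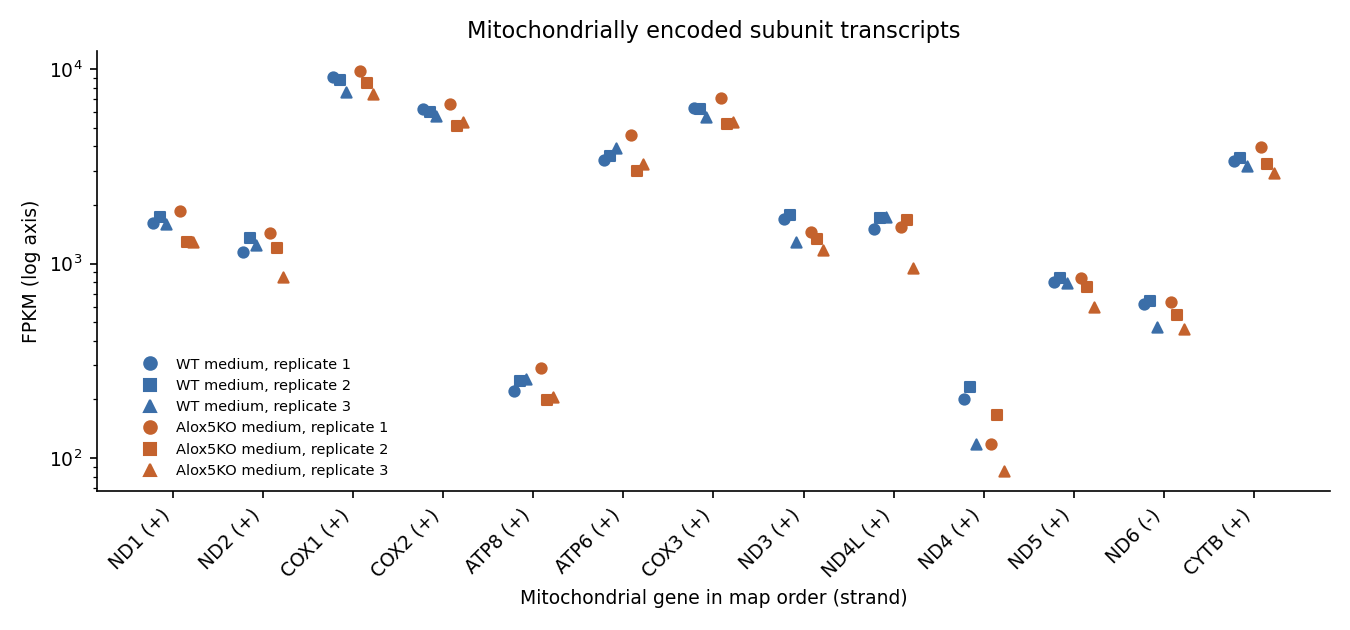
Points are FPKM (log axis) of the 13 mitochondrial subunit genes in each library, in map order with the strand in brackets on the x axis. The groups overlapped for every gene, with COX1 highest and ND4 lowest.

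The mitochondrial genes of complex I had log2 fold changes from -0.57 for ND4 to -0.08 for ND6. All 7 were below 0 here, but ND5 and ND6 were at 0.03 and 0.10 with quantile normalization, ND2 and ND6 at 0.08 and 0.04 without Alox5KO-medium replicate 3, and ND6 at 0.0010 without WT-medium replicate 2. Their summed FPKM was 7569, 8267 and 7243 with WT medium and 7875, 6980 and 5402 with Alox5KO medium, overlapping groups. Nuclear complex I genes summed to 2873, 3009 and 2507 against 2869, 2499 and 2656 FPKM. For complex IV the mitochondrial sum was 21684, 21050 and 19090 against 23480, 18777 and 18077 FPKM, and for complex V it was 3646, 3812 and 4162 against 4872, 3192 and 3455 FPKM. In every complex and either genome, the difference between the group means was smaller than the larger of the group SDs.

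Median levels of the tested nuclear genes were 73.6 FPKM for complex I, 73.9 for complex II, 114 for complex III, 174 for complex IV and 231 for complex V. Of 88 tested nuclear genes, 81 were above the median of all tested genes, which was 10.6 FPKM. The nuclear genes lie on 20 chromosomes, with 16 on chromosome 1 and 12 on chromosome 7. The rows of 17 overlap another row of the table, 11 of them with a row on the opposite strand, and use of strand in counting is not stated in the sources.

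Other genes that serve the pathway were read from lists named in the methods. In 8 lists outside the naming rule, 9 of 198 tested genes were called, 4 higher and 5 lower, beside 20.7% of all tested genes. Of 45 tested assembly factors, 1 was higher and 1 lower, and their median was -0.02. Higd1a, a hypoxia-induced factor of complexes III and IV, fell from 109, 106 and 73.9 to 66.1, 51.5 and 45.2 FPKM, by 0.81 on the log2 scale (limma, adjusted p = 0.018). Ttc19, which helps to maintain complex III, rose from 10.5, 10.4 and 12.0 to 15.6, 13.2 and 15.8 FPKM, by 0.41 (limma, adjusted p = 0.031). In both genes the groups lay apart.

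The genes of cytochrome c1 and cytochrome c, Cyc1 and Cycs, had log2 fold changes of -0.08 and -0.27 and were not called. Of 13 coenzyme Q genes 0 were called, with a median of -0.05. Among 26 tested genes of mitochondrial DNA upkeep, transcription and RNA processing 1 rose and 1 fell, with a median of 0.01. Pnpt1, an RNA-degrading enzyme that is also induced by interferon, rose by 0.40, and Mgme1, a nuclease of mitochondrial DNA, fell by 0.47 (limma, adjusted p = 0.032 and 0.039). The mitochondrial RNA polymerase Polrmt and its partners Tfam and Tfb2m had 0.24, -0.23 and 0.26, and Lrpprc, which stabilises mitochondrial messages, had -0.23, none of them called.

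Regulators of nuclear mitochondrial genes gave 0 calls among 7 tested, with a median of 0.13. Nrf1, a transcription factor of many respiratory genes, had 9.75, 10.7 and 9.37 against 8.01, 8.20 and 7.91 FPKM, groups that lay apart, with a log2 fold change of -0.27 (limma, adjusted p = 0.096). Ppargc1a, the coactivator that drives mitochondrial growth in muscle, had 2 reads in each group and was not tested. Of 20 genes of pyruvate entry and the citric acid cycle 1 fell, with a median of -0.06. This was Fh, fumarase, which went from 73.8, 74.8 and 62.4 to 47.6, 49.4 and 47.2 FPKM, a fall by 0.54 on the log2 scale (limma, adjusted p = 0.0051). Among 12 carriers and porins Slc25a5, an ADP/ATP carrier, fell by 0.36 (limma, adjusted p = 0.047), and the median was -0.04. Of 73 tested mitochondrial ribosomal protein genes Mrps2 and Mrpl47 rose and Mrps28 fell, with a median of -0.08.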

How the data were processed

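The authors deposited 1 table of FPKM values with 1 column per sample and the name, length, biotype and position of each gene, per the file headers. RNA was extracted with TRIzol and prepared with a NEBNext Ultra kit, per the labels. The submitters' processing notes name HISAT2 2.0.5, featureCounts 1.5.0-p3 and the mouse build mm10, with no order. All 108 genes carry rat Ensembl identifiers, so no mouse coordinates or sequences were used. FPKM times gene length came out as whole reads for 100% of values above 0, within 0.05 reads.

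Values were tested as log2(FPKM + 1), which understates changes of low genes, with limma 3.58.1 in R 4.3.3 (trend, robust prior, two-sided, no block) over the 12341 genes whose mean reached 1 FPKM, with Benjamini-Hochberg adjustment at 0.05. Fold changes are Alox5KO minus WT medium, and 95% intervals are unadjusted. The fit was tested on simulated data, with reads drawn independently for each gene. Those data held no deviation shared by the genes of a library, so that test does not cover the uneven libraries described above. Lists are described by counts and medians only. The genes and lists were chosen with earlier results of these data known. Values in every sample are given for called genes, the most and least abundant gene of each class, paired isoforms and, chosen after their values were seen, genes near the threshold, at the ends of a range or uneven between libraries. From each pathway list up to 4 called genes with the smallest p are named, with fixed regulators. Symbols were matched without regard to case. Results of 1 gene are counted but not reported here.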

Additional observations from a re-analysis of the deposited data

How the results depend on the processing

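The alternatives were other pseudocounts (0.1 and 0.5), no filter and a mean of at least 5 FPKM, 4 scalings (quantile, TPM, median centring and scaling to nuclear rows), a replicate block, limma voom on recovered reads, limma without trend and robust prior, and each library left out in turn. The count of genes called lower, 2, became 1 with no filter on low values, quantile normalization, TPM scaling, median centring, nuclear scaling or no trend and no robust prior, with Cox7a2l lost each time. Beside these counts, 12.1% of all genes were called with no filter, and 19.5% to 21.0% in the rest of these settings. The count called lower ran from 1 to 7 with 1 library left out, the 7 without WT-medium replicate 3. In those fits the share of all tested genes called ran from 13.3% without WT-medium replicate 1 to 20.6% without WT-medium replicate 3. The count called higher was 0 throughout, except for 1, Ndufv3, without Alox5KO-medium replicate 2. The median log2 fold changes of nuclear and mitochondrial genes kept their sign, between -0.18 and -0.0053 and between -0.26 and -0.01, and leaving out the 8 Ndufaf genes left both counts as they were. With the replicate number as a block 4 genes were lower, Ndufa4l2, Cox4i2, Ndufaf6 and ND4, beside 21.5% of all tested genes called. Deviations of same-numbered libraries correlated at -0.0964, 0.105 and 0.167, and not every library correlated best with its own number, so the numbers were not taken as pairs. With 3 libraries a group, changes in several genes, among them Ndufa1, Cox6a2, ND4 and ND4L, could not be bounded within 1.5-fold.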
